A study of Mus musculus and Sus scrofa with 12 samples.

Results

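H3K4me3 peaks of the pig embryonic forelimb were placed against H3K4me1 peaks of the same tissue, at day 23 of gestation (D23). The list held 18713 H3K4me3 peaks, of 258842 peaks in the 6 deposited lists of the series, and each was given 1 of 4 arrangements. H3K4me1 was called over the peak where an H3K4me1 peak covered its midpoint. Otherwise it was called on both flanks, on one flank or absent, according to the sides on which H3K4me1 touched the stretch between the midpoint and 2 kb beyond the edge. All 18713 peaks received an arrangement, and the 103373 pig H3K4me1 peaks were used as they stood. A coding gene took the arrangement of the widest H3K4me3 peak overlapping the 1 kb on either side of a transcription start site (TSS) that RefSeq annotates for it in Sscrofa11.1.

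The study profiled H3K4me3, H3K27ac and H3K4me1 in forelimbs of wild-type pig embryos at D23 and, as the other species, of wild-type mouse embryos at E11.5. Embryos came from natural mating, forelimbs of littermates served as replicates, and chromatin was fixed in 1% formaldehyde. The assay was ChIPmentation, in which a transposase adds sequencing adapters to chromatin held by the antibody. The labels name 12 samples, 2 for each species and modification, whereas the series' design text gives 1 biological replicate for pig H3K4me1. Peaks are consensus calls over replicates with no score, so no spread between animals could be computed, the depth is unknown, and 95% Wilson intervals given below cover counting error only. Peaks and genes are not replicates of the pig forelimb.

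H3K4me3 is deposited by SET1 and MLL complexes at active or poised promoters, chiefly those rich in CpG. H3K4me1 is the modification of enhancers, laid down mainly by MLL3 and MLL4, and it also borders active promoters, where the centre carries H3K4me3 in its place. A promoter-like site with H3K4me1 across its centre has been described for weak, poised or cell-restricted promoters and for some enhancers, and H3K27ac is the acetylation found at active promoters and enhancers. In whole forelimbs, H3K4me3 and H3K4me1 on the same chromatin and on that of different cells cannot be told apart.

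The 250 bases upstream of the TSS are shown for 6 genes as examples of each arrangement, because CpG content is the sequence feature in which the arrangements differed. They were read from the Sscrofa11.1 RefSeq genome, 5′ to 3′ on the strand of the gene, hold no annotated exon, and have every CpG in capitals. For H3K4me1 over the peak these are LHX2 (chr1:264900681-264900930, plus strand), a limb mesenchyme transcription factor, EPCAM (chr3:93185222-93185471, minus strand), an epithelial adhesion protein, and BMP5 (chr7:25344674-25344923, plus strand), a bone morphogenetic protein. BMP5 was chosen after its values were seen, as a CpG-poor case.
LHX2: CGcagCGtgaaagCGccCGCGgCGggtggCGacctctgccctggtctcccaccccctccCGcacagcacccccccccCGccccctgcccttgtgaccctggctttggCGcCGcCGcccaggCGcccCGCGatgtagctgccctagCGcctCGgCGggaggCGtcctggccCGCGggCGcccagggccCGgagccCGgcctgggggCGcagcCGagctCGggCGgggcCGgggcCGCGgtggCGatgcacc
EPCAM: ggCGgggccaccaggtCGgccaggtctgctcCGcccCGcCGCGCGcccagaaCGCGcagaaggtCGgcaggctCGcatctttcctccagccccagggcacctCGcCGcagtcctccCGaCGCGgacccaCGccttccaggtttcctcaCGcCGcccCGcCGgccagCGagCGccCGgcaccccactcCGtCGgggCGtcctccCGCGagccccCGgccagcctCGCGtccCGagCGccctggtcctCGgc
BMP5: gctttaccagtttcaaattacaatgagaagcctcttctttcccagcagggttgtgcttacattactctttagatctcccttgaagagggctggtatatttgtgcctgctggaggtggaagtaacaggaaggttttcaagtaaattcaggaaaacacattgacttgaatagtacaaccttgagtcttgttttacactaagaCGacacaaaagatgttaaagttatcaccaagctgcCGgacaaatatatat
The other arrangements are shown at genes of cytosolic ribosomal proteins. For both flanks the example is RPL35 (chr1:265642279-265642528, minus strand), for one flank, the downstream one, RPL11 (chr6:81523260-81523509, plus strand), and for absent RPS23 (chr2:90680682-90680931, minus strand).
RPL35: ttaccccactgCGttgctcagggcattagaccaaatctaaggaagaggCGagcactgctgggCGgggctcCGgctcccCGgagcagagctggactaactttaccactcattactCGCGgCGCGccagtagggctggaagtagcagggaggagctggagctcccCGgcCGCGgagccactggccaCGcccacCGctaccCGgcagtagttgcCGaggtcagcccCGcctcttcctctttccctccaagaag
RPL11: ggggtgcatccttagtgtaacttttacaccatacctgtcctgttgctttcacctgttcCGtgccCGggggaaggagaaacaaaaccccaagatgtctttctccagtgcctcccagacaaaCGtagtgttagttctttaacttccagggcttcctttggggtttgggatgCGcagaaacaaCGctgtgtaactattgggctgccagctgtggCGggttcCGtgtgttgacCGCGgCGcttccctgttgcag
RPS23: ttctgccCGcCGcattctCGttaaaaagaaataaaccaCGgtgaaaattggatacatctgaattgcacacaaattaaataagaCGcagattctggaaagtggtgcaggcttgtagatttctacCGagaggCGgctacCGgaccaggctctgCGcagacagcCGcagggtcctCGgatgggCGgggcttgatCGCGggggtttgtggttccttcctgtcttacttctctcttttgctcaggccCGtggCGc
These stretches held 32 CpGs at LHX2, 35 at EPCAM, 2 at BMP5, 17 at RPL35, 10 at RPL11 and 16 at RPS23. All but that of BMP5 lay inside the H3K4me3 peak of the gene. CpG-dense and CpG-poor promoters thus stood within the same arrangement, and the differences given further on are differences in shares.

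H3K4me1 lay over the midpoint of 6899 of the 18713 pig H3K4me3 peaks (36.9%, interval 36.2 to 37.6). It lay on one flank of 5814 (31.1%, 30.4 to 31.7), on both flanks of 3266 (17.5%, 16.9 to 18.0) and was absent at 2734 (14.6%, 14.1 to 15.1). The split turned with distance from genes. Among 13457 peaks within 1 kb of an annotated TSS, 30.9% had H3K4me1 over them, 20.8% on both flanks, 36.0% on one flank and 12.3% had none. Among the 5256 peaks away from TSSs these shares were 52.2%, 8.87%, 18.4% and 20.6%. One flank was therefore the commonest arrangement at TSSs, and H3K4me1 over the peak the commonest elsewhere.

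**Figure D1:**
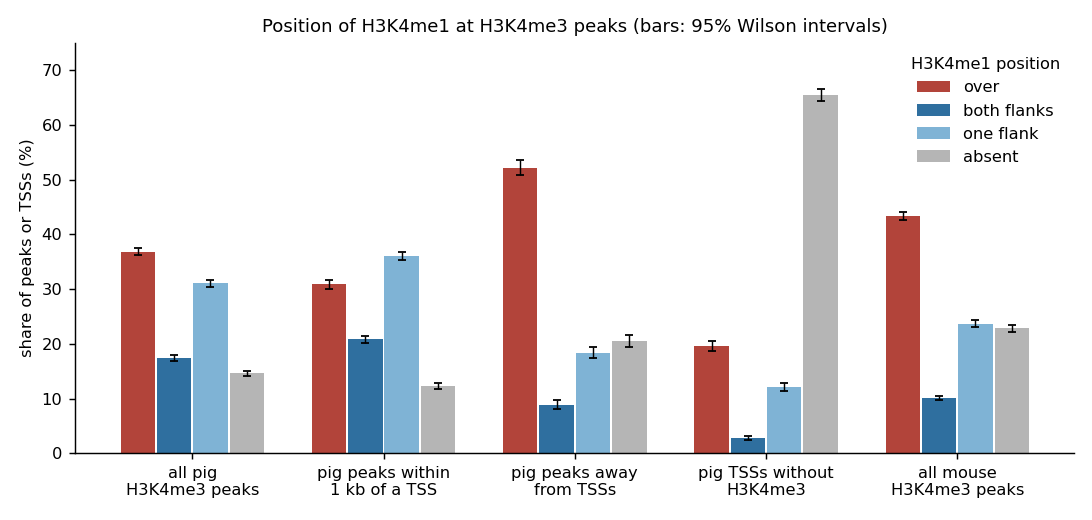
Share of H3K4me3 peaks (y axis, %) with H3K4me1 over the peak, on both flanks, on one flank or absent, for pig peak sets, for windows at pig TSSs without H3K4me3, and for mouse peaks; error bars are 95% Wilson intervals of counting error. H3K4me1 lay over 52.2% of pig peaks away from TSSs, against 30.9% of those within 1 kb of a TSS.

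H3K4me3 was found within 1 kb of a TSS at 13385 of 20661 pig coding genes (64.8%). Of these genes, 4948 had H3K4me1 on one flank (37.0%, interval 36.2 to 37.8), 3801 had it over the peak (28.4%, 27.6 to 29.2), 3144 on both flanks (23.5%, 22.8 to 24.2) and 1492 on neither (11.15%, 10.6 to 11.7). These genes rested on 11971 distinct peaks, since 2809 shared their peak with another coding gene. The 7276 coding genes without H3K4me3 were given a window of the median H3K4me3 width, 1679 bp, at the TSS. H3K4me1 lay over 19.7% of those windows, on both flanks of 2.79%, on one flank of 12.0% and at none of 65.5%. H3K4me1 on both flanks was thus 23.5% at genes with H3K4me3, against 2.79% at genes without.

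The definition of "over" sets much of this split. Where a single shared base counted as over, 14036 peaks had H3K4me1 over them, and where 1 H3K4me1 peak had to span the whole H3K4me3 peak, 4230 did. With a single shared base, over was also the commonest arrangement at coding genes, with 10590 against 998 for one flank. In 61.3% of the 6899 peaks with H3K4me1 over the midpoint, a single H3K4me1 peak spanned the H3K4me3 peak from edge to edge. In 36.8% it passed 1 edge only, and in 127 peaks (1.84%) it ended inside the H3K4me3 peak on both sides. H3K4me1 also reached into the H3K4me3 peak at 86.9% of peaks with both flanks and 73.9% of those with one flank.

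With both flanks, the stretch free of H3K4me1 around the midpoint had a median of 1779 bp (quartiles 1263 to 2563 bp), or 84.9% of the width of the H3K4me3 peak. With one flank, H3K4me1 began at a median of 510 bp from the midpoint on the flanked side, whereas the next H3K4me1 on the other side was 12355 bp away. Where it was absent, the nearest H3K4me1 stood at a median of 11731 bp (2667 peaks with a value). The one-flank and absent sides were mostly far from H3K4me1, not just past the 2 kb limit. H3K4me1 covered 12.8% of the genome, and 14.4% of its peaks overlapped H3K4me3.

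Peaks with H3K4me1 on both flanks were the widest, with a median of 2084.5 bp (95% interval of the median 2052 to 2109 bp), followed by one flank with 1789.5 bp (1772 to 1808), over with 1555 bp (1538 to 1574) and absent with 1280 bp (1262 to 1307). Width is part of the rule, since the stretch searched for a flank grows with it, so these medians are given as a description. The order depends on the definition of over: where a single shared base counted, the medians were 1789 bp for over, 1629 bp for both flanks and 1456.5 bp for one flank.

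Direction of transcription ordered the one-flank peaks. The coding TSSs at 4127 one-flank peaks ran in a single direction, and at 3366 of them (81.6%, interval 80.3 to 82.7) H3K4me1 lay on the downstream side only. It lay on the upstream side only at 761 (18.4%). Where a single shared base counted as over, the downstream share of one-flank peaks was 61.8%. With a stretch of 3 kb on each side of the TSS itself, whatever the edges of the peak, it was 84.6%. That stretch was chosen after seeing the data. The TSS used was the annotated one nearest the peak midpoint. Peak midpoints lay downstream of the TSS by a median of 289 bp, so the sides were not centred on the TSS in the first count. In mouse forelimb, 72.4% of 3138 such peaks had the downstream flank.

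A closer view came from 10599 coding genes whose peak held TSSs in 1 direction. At the TSS itself 22.7% had H3K4me1, and the lowest value within 1 kb of it, 22.2%, lay 150 bp upstream. Farther upstream the share was lower, with 15.7% at 5000 bp. H3K4me1 reached 69.2% of genes at 1650 bp downstream, against 31.8% at 1050 bp upstream. At the 7276 coding genes without H3K4me3 it was 19.7% at the TSS and at most 21.6% downstream, with no dip at the start site. At one-flank genes with the downstream flank, H3K4me1 began at a median of 727 bp beyond the TSS (quartiles 516 to 1077 bp). Of the 8196 genes whose TSS was free of H3K4me1, 47.8% had it within 3 kb downstream only, 27.5% on both sides, 8.70% upstream only and 16.0% on neither side.

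**Figure D2:**
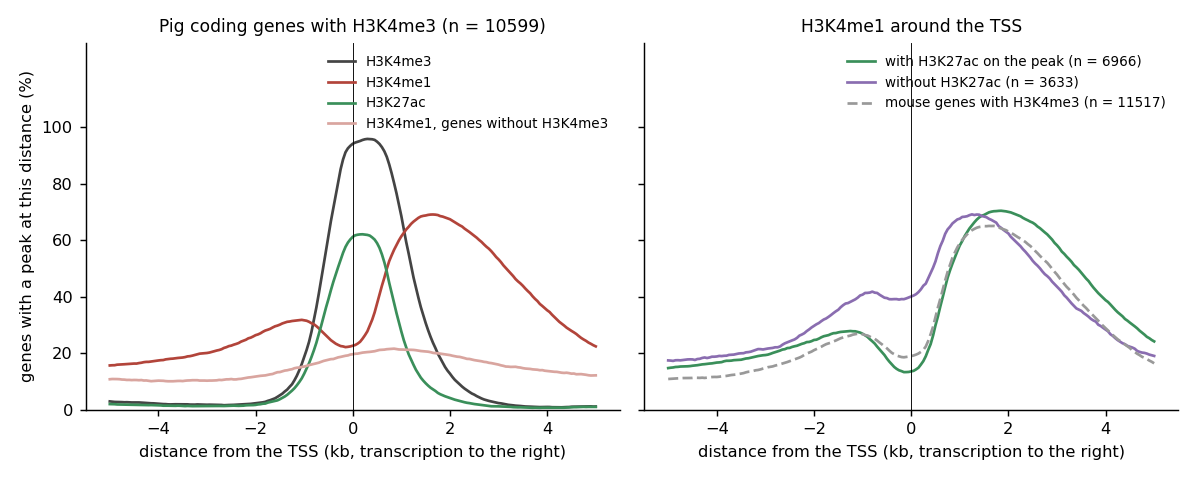
Left, share of pig coding genes (y axis, %) with a peak of each modification at each distance from the TSS (x axis, kb, transcription to the right), for 10599 genes with H3K4me3 and, as the pale line, H3K4me1 at 7276 genes without it. Right, H3K4me1 at genes with and without H3K27ac on the H3K4me3 peak and at mouse genes; H3K4me1 on the pig TSS is 13.6% with H3K27ac and 40.1% without.

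Bidirectional promoters had a different split. At 1475 of 12852 peaks at coding TSSs, the TSSs ran in both directions. H3K4me1 lay on both flanks of 38.6% of these (interval 36.2 to 41.2), against 18.8% (18.1 to 19.5) of peaks with TSSs in 1 direction. It lay over 15.9% of the bidirectional peaks, against 32.5% of the others. Bidirectional peaks without H3K4me1 made up 7.12%, against 12.5%. H3K4me1 on each side of a bidirectional peak is downstream of one of its TSSs.

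H3K27ac, which the rule did not use, separated the arrangements. It overlapped 41.1% of peaks with H3K4me1 over them (interval 39.9 to 42.2), 72.1% of those with both flanks (70.6 to 73.6), 70.5% with one flank (69.3 to 71.7) and 46.9% with none (45.0 to 48.8). Over all pig H3K4me3 peaks the share was 56.5%. The difference between H3K4me1 over the peak and on one flank was -29.5 percentage points (Newcombe interval -31.1 to -27.8), and between over and both flanks -31.1 points (-33.0 to -29.1). Both flanks and one flank differed by 1.62 points, with an interval of -0.33 to 3.54 that includes 0. At coding genes, H3K27ac stood on the peak of 47.6% with H3K4me1 over it, 77.6% with both flanks, 79.3% with one flank and 65.5% with none, against 68.4% of all 13385 genes.

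The lower H3K27ac share with H3K4me1 over the peak held within classes of site. Within 1 kb of a TSS it was 45.3% for over, 76.0% for both flanks and 76.5% for one flank. Away from TSSs the values were 34.7%, 48.7% and 40.5%, so the difference from one flank was -5.85 points there (-9.44 to -2.30). At CpG-rich peaks at TSSs it was -35.5 points, and at other TSS peaks -12.8 points. In each of the 5 quintiles of peak width, over was below one flank, by -6.66 points in the narrowest and by -27.1 to -34.1 points in the others. Where a single shared base counted as over, the share for over was 57.4%, against 61.7% for one flank.

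The order of over and absent depended on the class of site. Within 1 kb of a TSS, H3K27ac was at 45.3% of peaks with H3K4me1 over them, against 61.1% of those without H3K4me1. Away from TSSs the order was the opposite, with 34.7% for over against 25.1% for absent, a difference of 9.53 points (6.33 to 12.6). Among CpG-rich peaks away from TSSs, however, it was 28.4% for over against 34.5% for absent (-6.17 points, -11.7 to -0.85). Over was also above absent at TSS peaks that were not CpG rich (47.9% for over, 41.0% for absent), among the narrowest quintile of peaks (32.1% for over, 24.5% for absent) and where 1 shared base counted as over (57.4% for over, 46.9% for absent). Among one-flank peaks, those with the downstream flank had H3K27ac at 78.6% (interval 77.2 to 80.0) and those with the upstream flank at 65.8% (62.4 to 69.1). The TSS itself carried H3K4me1 at 13.6% of 6966 genes with H3K27ac on the peak, against 40.1% of 3633 genes without, while the downstream maxima were 70.5% and 69.2%. Genes with and without H3K27ac thus differed at the start site and upstream, and hardly in the height of the downstream maximum. The upstream maxima were 27.9% with H3K27ac and 41.8% without. The downstream maximum lay at 1850 bp with it and at 1250 bp without.

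**Figure D3:**
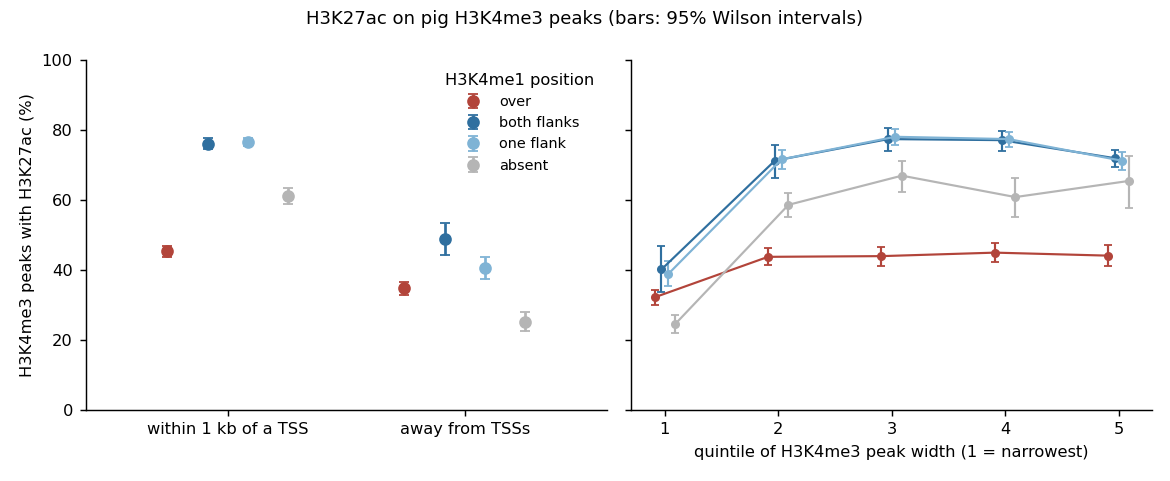
Share of pig H3K4me3 peaks with H3K27ac (y axis, %) by position of H3K4me1, at and away from TSSs (left) and by quintile of peak width (right); points are shares and bars 95% Wilson intervals of counting error. Peaks with H3K4me1 over them lie below those with one or both flanks in each panel, at 45.3% against 76.5% for one flank within 1 kb of a TSS.

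CpG content differed with the arrangement. A TSS was called CpG rich where the 500 bases on each side held at least 50% G and C and an observed to expected CpG ratio of at least 0.6. This was so at 72.7% of genes with H3K4me1 over the peak (interval 71.3 to 74.1), 89.5% with both flanks (88.4 to 90.5), 88.6% with one flank (87.6 to 89.4) and 78.2% with none (76.1 to 80.2). Genes without H3K4me3 were CpG rich at 7.12%. The median CpG ratio was 0.715 for over, 0.804 for both flanks, 0.789 for one flank and 0.751 for absent, against 0.276 at genes without H3K4me3. Peaks away from TSSs had lower ratios, with medians of 0.529 for over, 0.675 for both flanks, 0.661 for one flank and 0.536 for absent. LHX2 and EPCAM, shown above, had ratios of 0.868 and 0.822 over the 1 kb at the TSS, while BMP5 had 0.202.

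The X chromosome had few H3K4me1 peaks and another split. It held 1444 H3K4me1 peaks, or 11.47 per Mb, against 44.54 per Mb on autosomes, and 5.26 H3K4me3 peaks per Mb against 7.78. Of the 662 H3K4me3 peaks on X, H3K4me1 was absent at 43.4% (interval 39.6 to 47.2), against 13.0% on autosomes, where the share ran between 9.34% on chromosome 12 and 17.0% on chromosome 8. At peaks of coding TSSs alone, absent was 41.7% on X and 10.6% on autosomes. H3K27ac was also sparser on X, at 3.90 peaks per Mb against 11.8. Even so, 51.7% of H3K4me3 peaks on X had H3K27ac, against 56.9% on autosomes, and among those without H3K4me1 the shares were 49.8% and 47.2%. Mouse X had 4.92 H3K4me1 peaks per Mb, against 28.1 on mouse autosomes, and no H3K4me1 at 50.5% of its coding TSS peaks, against 16.5%. The labels do not give the sex of the embryos, and the part of sex, copy number or mappability in these values was not tested.

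**Figure D4:**
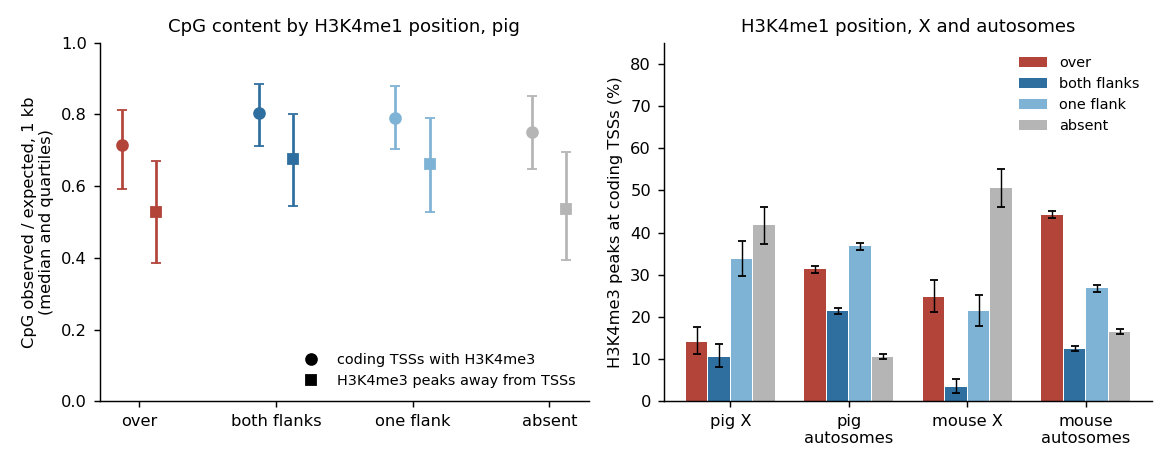
Left, CpG observed to expected ratio (y axis) over 1 kb at coding TSSs with H3K4me3 and at peaks away from TSSs, as median and quartiles by position of H3K4me1. Right, share of H3K4me3 peaks at coding TSSs (y axis, %) in each arrangement on X and autosomes of pig and mouse, with 95% Wilson intervals; H3K4me1 was absent at 41.7% on pig X and 10.6% on pig autosomes.

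Defining markers were read first, as a check of the labelled tissue. A gene is said here to lack H3K4me3 where no peak overlapped the 1 kb on either side of an annotated TSS, which leaves peaks farther into the gene out of the count. TBX5, the transcription factor that starts forelimb outgrowth, had H3K4me3 with H3K27ac, as did TWIST1, HAND2 and MSX1 of limb mesenchyme. LHX9 had H3K4me3 without H3K27ac, and PRRX1 had no H3K4me3 peak within 1 kb of its annotated TSSs. PITX1, TBX4 and ISL1, which mark hindlimb, had H3K4me3 without H3K27ac. No H3K4me3 was called at ALB or APOA1 of liver, at NPPA of heart, or at GATA1, KLF1, SPI1 and PTPRC of blood, while TAL1 of blood and NKX2-5 and TNNI3 of heart had it without H3K27ac. FOXA3, 1 of 10 genes of the liver list, had H3K4me3 with H3K27ac at a peak shared with another gene. It was also not called at PAX7 of muscle precursors, PECAM1 and CDH5 of endothelium, TP63 of ectoderm, SOX10 of neural crest and glia, or SYN1 of neurons.

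Of 33 limb mesenchyme genes 31 had H3K4me3, against 64.8% of all coding genes. H3K4me1 lay over 13 of the 31 (41.9%, against 28.4% of all genes), on both flanks of 5, on one flank of 12 and at none of 1. H3K27ac was on 27 of the 31, against 68.4% of all genes. TBX15, a T-box gene of limb mesenchyme, had a peak of 5742 bp at chr4:101919344-101925085, with an H3K4me1 peak of 3199 bp over its downstream portion and H3K27ac. At MSX1, a homeobox gene of distal mesenchyme, the H3K4me3 peak of 4116 bp was likewise covered by H3K4me1 on its downstream side. At LHX2, H3K4me1 began inside the peak of 4635 bp, leaving its upstream edge free, and passed its downstream edge by 1755 bp. At each of these 3 wide peaks H3K4me1 covered the midpoint and left the upstream edge free.

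H3K4me1 also lay over the peaks of MSX2, LHX9, SALL1, SALL3, IRX3, OSR2, HIC1, MEIS1, MEIS2 and MEOX2. In 10 of the 13 genes of this list with H3K4me1 over the peak, the peak had H3K27ac, against 47.6% of all such genes; LHX9, OSR2 and HIC1 were the exceptions. The flanked genes included TBX3 and ZBTB16 on both flanks, TWIST1, TWIST2, TBX18, HAND2 and OSR1 on the upstream flank only, and PRRX2, TBX2, SHOX2, LMX1B and EMX2 on the downstream flank only. Of the 12 one-flank genes, 7 had the downstream flank and 5 the upstream flank. The downstream flank was found at 81.6% of all one-flank peaks with TSSs in 1 direction. At LMX1B, the dorsal identity factor, H3K4me1 stood 3.49 kb downstream of the midpoint and so just within the flank limit. TBX5 was the 1 gene of the list without H3K4me1, at a peak of 1367 bp at chr14:37774190-37775556, where H3K4me1 stood 7.33 kb upstream and 6.80 kb downstream of the midpoint.

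**Figure D5:**
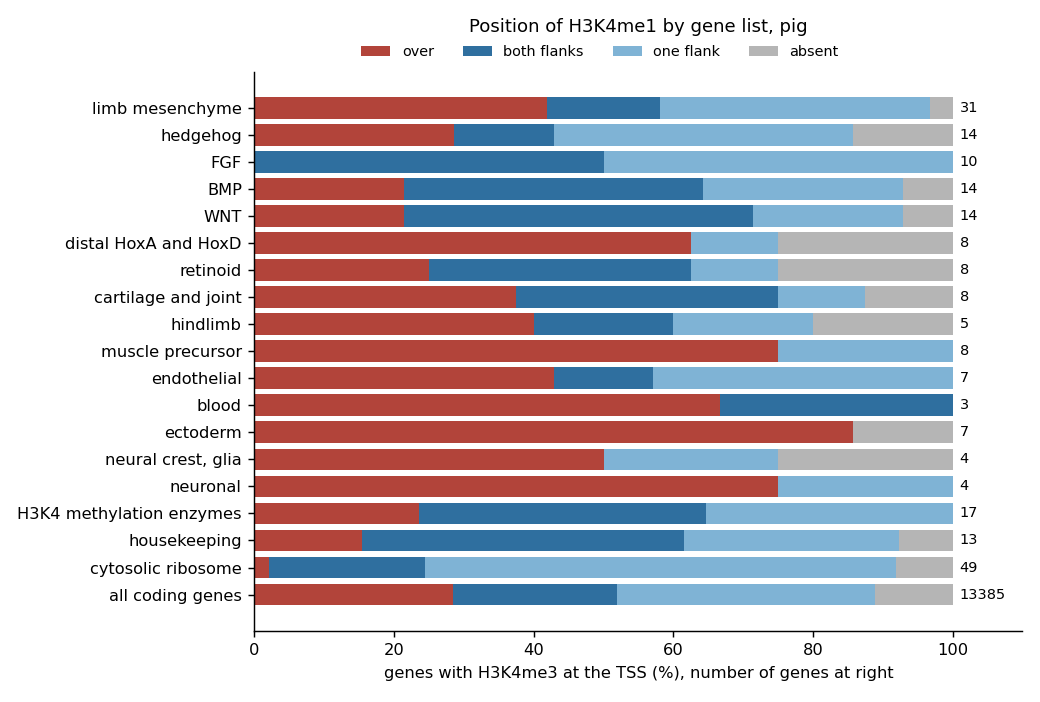
Share of genes with H3K4me3 at the TSS (x axis, %) in each arrangement of H3K4me1, by gene list, with the number of genes at the right of each bar and all coding genes in the lowest row. H3K4me1 lay over none of 10 FGF genes and 1 of 49 cytosolic ribosomal genes, against 28.4% of all coding genes.

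In the hedgehog pathway, which patterns the limb from the posterior margin, all 14 genes had H3K4me3 (64.8% of all coding genes) and 12 had H3K27ac (68.4% of all genes with H3K4me3). H3K4me1 lay over 4 (28.6%, close to the 28.4% of all genes), on both flanks of 2, on one flank of 6 and at none of 2. SHH, the ligand, had a peak of 4288 bp without H3K27ac, H3K4me1 0.57 kb downstream of the midpoint and none for 24.6 kb upstream. The receptor gene PTCH1 had no H3K4me1 at its widest peak (3715 bp at chr10:26634697-26638411, with H3K27ac), where H3K4me1 began 4.40 kb upstream and 4.54 kb downstream. DISP1, needed for release of the ligand, was the other gene without H3K4me1. The genes with H3K4me1 over the peak included the transcription factor GLI1, the decoy receptor HHIP and the cilium regulator KIF7, each with H3K27ac. At GLI1 the H3K4me1 peak of 1782 bp ended inside the H3K4me3 peak of 3344 bp on both sides. GLI3 and the co-receptor BOC had both flanks, and all 6 one-flank genes (SHH, SMO, SUFU, GLI2, GAS1 and CDON) had the downstream flank. The downstream flank was found at 81.6% of all one-flank peaks with TSSs in 1 direction.

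In the FGF pathway, which keeps the apical ridge and the mesenchyme growing, 10 of 14 genes had H3K4me3 (64.8% of all coding genes). H3K4me1 lay over none of the 10, against 28.4% of all genes. Both flanks carried it at FGF9, at the receptors FGFR1 and FGFR3 and at the feedback inhibitors SPRY2 and SPRY4. One flank carried it at FGF8, SPRY1, DUSP6, ETV4 and ETV5, downstream in each but ETV5. Of all one-flank peaks with TSSs in 1 direction, 81.6% had the downstream flank. H3K27ac was on 8 of the 10 (68.4% of all genes with H3K4me3), and FGF8 and FGFR3 lacked it. FGF10, FGF4, FGF17 and FGFR2 had no H3K4me3.

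Of the 15 BMP genes 14 had H3K4me3 (64.8% of all coding genes), and each of the 14 had H3K27ac, against 68.4% of all genes. H3K4me1 lay over the ligands BMP2 and BMP5 and the antagonist GREM1, on both flanks of 6, on one flank of 4 and at none at the receptor gene BMPR1B. GREM1, which links the SHH and FGF centres, had a peak of 2564 bp lying within an H3K4me1 peak of 6519 bp. BMP5 had a peak of 671 bp that starts downstream of the stretch shown above. SMAD7, an inhibitor of the pathway, had H3K4me1 3.23 kb upstream of the midpoint and 4.03 kb downstream, so that the upstream side alone fell within the limit. Both flanks were found at BMP7, BMPR1A, BMPR2, BAMBI, ID2 and ID3.

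Of the 15 WNT genes 14 had H3K4me3 (64.8% of all coding genes). H3K4me1 lay over WNT5A, WNT7A and RSPO2 (28.4% of all genes), on both flanks of 7, on one flank of 3 and at none at DKK1. Both flanks were found at 7 of 14, against 23.5% of all genes, among them CTNNB1, which encodes beta-catenin, and LEF1 and TCF7, its partners on DNA. H3K27ac was on 9 of the 14 peaks, close to the 68.4% of all genes with H3K4me3. It was missing at WNT3, WNT6, WNT7A, WNT7B and TCF7.

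Of the 9 HoxA and HoxD genes of groups 9 to 13, which pattern the limb along its length, 8 had H3K4me3 (64.8% of all coding genes). H3K4me1 lay over HOXA9, HOXA10, HOXA13, HOXD12 and HOXD13, each with H3K27ac. Over all genes with H3K4me3, H3K4me1 lay over 28.4% and H3K27ac was on 68.4%. The HOXD13 peak of 2367 bp lay within an H3K4me1 peak of 2940 bp, and that of HOXD12 (3167 bp) within one of 3809 bp. HOXD9 and HOXD10 shared a peak of 2966 bp without H3K4me1, which stood 6.33 kb upstream and 16.0 kb downstream, and HOXA11 had the upstream flank without H3K27ac. HOXD11 had no H3K4me3 within 1 kb of its TSSs, and the peak of HOXD9 and HOXD10 lay inside the HOXD11 gene. In mouse forelimb, H3K4me1 was absent at the H3K4me3 peaks of HOXD12 and HOXD13.

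All 8 annotated retinoid genes had H3K4me3 (64.8% of all coding genes). H3K4me1 lay over RARA and the synthetic enzyme ALDH1A2 (28.4% of all genes), and it was absent at RXRA and at CYP26A1, which degrades retinoic acid. At RARA, a retinoic acid receptor gene, an H3K4me1 peak of 1740 bp lay wholly inside a peak of 4709 bp. Of 8 cartilage and joint genes with H3K4me3, SOX9 and SOX6, the cartilage factors, and their collagen target COL2A1 had both flanks with H3K27ac. ACAN, GDF5 and NKX3-2 had H3K4me1 over the peak, with H3K27ac at GDF5 alone. IHH had neither H3K4me1 nor H3K27ac. Over the 8 limb lists together, 107 of 120 annotated genes had H3K4me3, against 64.8% of all coding genes. H3K4me1 lay over 33 (30.8%, close to the 28.4% of all genes), on both flanks of 31 (23.5% of all genes), on one flank of 33 (37.0% of all genes) and at none of 10 (11.15% of all genes). The flank was downstream in 23 of the 33 one-flank genes and upstream in 10, against 81.6% downstream of all one-flank peaks with TSSs in 1 direction. H3K27ac was on 86 of the 107, against 68.4% of all genes.

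Genes of the other cell types that a forelimb holds stood apart from the limb lists in their counts. Over muscle precursors, endothelium, blood, ectoderm, and neural crest or glia, 29 of 50 annotated genes had H3K4me3, against 64.8% of all coding genes. H3K4me1 lay over 19 of the 29 (65.5%, against 28.4% of all genes), and 9 had H3K27ac, against 68.4% of all genes. Among muscle precursor genes, H3K4me1 lay over PAX3, LBX1, MYF5, MYF6 and MYOD1, each without H3K27ac. At MYOD1, the myogenic master factor, the H3K4me3 peak of 3105 bp at chr2:41421726-41424830 lay within an H3K4me1 peak of 4852 bp. MET and EYA1 had the downstream flank with H3K27ac.

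Of 7 ectoderm genes with H3K4me3, H3K4me1 lay over 6, the keratins KRT8 and KRT18, EPCAM, GRHL2, SP8 and ESRP1, with H3K27ac at EPCAM, GRHL2 and SP8. Over all genes these shares were 28.4% for H3K4me1 over the peak and 68.4% for H3K27ac. At EPCAM the peak of 1261 bp lay within an H3K4me1 peak of 4593 bp. CDH1, which encodes E-cadherin, had neither H3K4me1 nor H3K27ac. Among endothelial genes H3K4me1 lay over KDR, ESAM and CLDN5, on both flanks of FLT1 and on one flank of TIE1, ERG and SOX18, and H3K27ac was on ERG alone. TAL1 and EPOR of blood had H3K4me1 over the peak without H3K27ac, and LMO2 had both flanks with it. ERBB3 and TFAP2B of the neural crest and glia list had H3K4me1 over the peak, and FOXD3 had none. The part of cell proportions in these counts was not tested. Neuronal genes had H3K4me3 at 4 of 9 (64.8% of all coding genes). H3K4me1 lay over STMN2, SNAP25 and NEFL (28.4% of all genes), and none of the 4 had H3K27ac (68.4% of all genes). Of 6 hindlimb genes, H3K4me1 lay over TBX4 and HOXC10, on both flanks of PITX1, downstream of HOXC9 and at none at ISL1, and H3K27ac was on none of these 5, against 68.4% of all genes.

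Of 50 cytosolic ribosomal genes 49 had H3K4me3, against 64.8% of all coding genes. H3K4me1 lay over 1, against 28.4% of all genes. It lay on one flank of 33 (37.0% of all genes) and on both flanks of 11 (23.5% of all genes). H3K4me1 was absent at 4 (RPL14, RPL34, RPS3 and RPS23). The flank was downstream in 30 of the 33, against 81.6% of all one-flank peaks with TSSs in 1 direction. The 33 were not limited to such peaks. RPL7A and RPS25 were among the exceptions. H3K27ac was on 45 of the 49, against 68.4% of all genes. At RPL11, shown above, H3K4me1 lay 0.79 kb downstream of the midpoint and 11.9 kb upstream. At RPS23 it lay 11.7 kb downstream and 29.3 kb upstream. Of 15 housekeeping genes 13 had H3K4me3 (64.8% of all coding genes). H3K4me1 lay over TBP and SDHA (28.4% of all genes) and on both flanks of 6 (23.5% of all genes). It lay on one flank of 4 (37.0% of all genes), downstream in each, and was absent at HPRT1, which lies on X. ACTB and GAPDH had both flanks, with 2.10 kb free of H3K4me1 at ACTB. At PGK1, also on X, H3K4me1 lay 0.16 kb downstream and 631 kb upstream.

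A list of H3K4 methyltransferases, their subunits and relatives, and histone demethylases had H3K4me3 at 17 of 18 genes, against 64.8% of all coding genes. H3K4me1 lay over 4 of the 17 (23.5%, against 28.4% of all genes) and on both flanks of 7 (23.5% of all genes). It lay over ASH2L and DPY30, core subunits of the methyltransferase complexes, over the H3K4me1 and H3K4me2 demethylase KDM1A and over KDM5C, a demethylase of H3K4me3. The methyltransferases KMT2A, KMT2B and KMT2C had both flanks, as did their relative KMT2E, the scaffold subunit WDR5, the H3K4 demethylase KDM5A and KDM6A, a demethylase of H3K27 found in the KMT2C and KMT2D complexes. KMT2D and SETD1B had the downstream flank, and SETD1A had no H3K4me3.

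The widest peaks in each arrangement, LOC symbols left out, show the range of sites. With H3K4me1 over the peak they were at MN1 (5763 bp), TBX15, CD248 (5266 bp), IRX2 with its neighbour C16H5orf38 (4852 bp) and PRDM16 (4758 bp). With both flanks they were at NRP2 (5443 bp), SSBP3 (4850 bp), MEX3B (4730 bp), EPHB4, TAF4 and NFATC4, each with H3K27ac. With one flank they were at NR2F2 (4938 bp), IGF2BP1, TSC22D1, ACTG1, CAPN10 and TRIM8. Without H3K4me1 they were at BCORL1 (5272 bp, on X), JADE2 (3757 bp), PTCH1, ST8SIA4, SMARCA2 and EPHA7. At CD248, a surface protein of mesenchyme, the H3K4me1 peak of 2919 bp lay inside the H3K4me3 peak on both sides.

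Among both-flank genes with H3K27ac, the longest stretches free of H3K4me1 were at TGIF1 (7.30 kb), FZD2 (6.17 kb), ZC3H4 (5.77 kb), BHLHE22 (5.27 kb), NRP2 (5.16 kb) and DDX3X (5.13 kb). Among one-flank genes with H3K27ac they were at DIAPH2, FAM133A and NAP1L3 (2455 kb each), PCDH9 (2129 kb), ZNF496 (1218 kb) and AMER1 (908 kb). DIAPH2, FAM133A, NAP1L3 and AMER1 lie on X, and the stretch of DIAPH2 is that of FAM133A and NAP1L3 seen from its other end.

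The mouse forelimb gave a comparison by gene. Of 14946 genes with the same symbol in both annotations, 11156 had H3K4me3 at the TSS in both species. H3K4me1 lay over the peak at 27.1% of them in pig (interval 26.3 to 27.9) and 41.6% in mouse (40.7 to 42.5). Both flanks carried it at 24.9% in pig and 15.2% in mouse, one flank at 38.0% in pig and 29.2% in mouse, and neither at 10.0% in pig and 14.0% in mouse. The arrangement was the same in both species at 4186 genes (37.5%, 36.6 to 38.4). Of the 3021 genes with H3K4me1 over the pig peak, 57.8% had it over the mouse peak, as had 27.7% of those with both flanks in pig, 40.6% of those with one flank and 36.0% of those with none.

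The species lists differ in peak widths, read length at sequencing and stated replication, and the part of these in the split was not tested. A measure at the TSS itself gave another order. The TSS used was the annotated one nearest the midpoint of the gene's widest H3K4me3 peak, so the measure is not independent of those peaks. It also depends on how much of each genome H3K4me1 covered, 13.8% of pig autosomes and 9.56% of mouse autosomes. H3K4me1 covered the TSS itself at 18.9% of the 11156 genes in pig (18.2 to 19.7) and 15.3% in mouse (14.6 to 15.9). Of the 2114 genes with it in pig, 36.6% had it in mouse (34.6 to 38.7), against 10.3% (9.65 to 10.9) of the genes without it in pig. GREM1, GLI1, HHIP, MSX1, MEIS1 and MYOD1 were among the genes with H3K4me1 over the peak in both species. MSX2, HOXD13, BMP2 and PAX3 had it over the pig peak and none at the mouse peak.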

How the data were processed

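Each deposited list is the authors' set of peak positions (chromosome, start, end) for 1 species and modification. Peaks come without a score or p-value. Per the labels and the series' design text, pig reads were aligned to Sscrofa11.1 and mouse reads to GRCm38, and broad peaks with an IDR (irreproducible discovery rate) under 0.01 were kept. Reads were 50 bp in pig H3K4me3 and H3K27ac libraries. Those of pig H3K4me1 and of mouse were 100 bp, cropped to 50 bp. The submitters' processing notes name Trimmomatic 0.39, Bowtie2 2.3.5, SAMtools 1.9, deepTools 3.5 and FastQC 0.11.9. No peak caller is named in the sources used here. Broad calling can join nearby peaks and so move edges and midpoints.

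Of the 6 lists 5 were used. The mouse H3K27ac list was not used here. Peaks were compared in Python 3.11.15 with numpy 2.4.6, pandas 2.3.3 and pysam 0.24.0, and figures were drawn with matplotlib 3.10.9. TSSs came from RefSeq transcripts. Those of all genes, coding or not, define peaks within 1 kb of an annotated TSS or away from TSSs. Those of protein-coding genes were used for counts by gene and for direction, and 12852 peaks lay at coding TSSs. For values at the TSS itself, the coding TSS nearest the peak midpoint was taken, or the 5′-most at genes without H3K4me3. H3K27ac on a peak means an overlap of 1 bp or more. Shares have 95% Wilson intervals and differences of shares have Newcombe intervals. Median widths have binomial order-statistic intervals (scipy 1.17.1). No test over genes was made. Classification was tested on simulated peaks. Of 290 symbols in 20 gene lists 285 were annotated in pig. Orthologs were paired by symbol. The flank side of a list gene follows its own strand, also where its peak holds TSSs in both directions. Such peaks are left out of the 81.6% and 18.4% set beside list counts.

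Named genes are list members, the 6 genes per arrangement with the widest H3K4me3 peak, and the 6 flanked genes with H3K27ac and the longest stretch free of H3K4me1. Sequences are of the first list member per arrangement with a single TSS and no annotated exon in the stretch. The exon condition and the ribosomal and ectoderm lists as sources were added after values were seen. The members and lists were chosen with earlier results of these data known. A few genes and promoter stretches that these rules give are not reported here, and counts include those genes.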

Additional observations from a re-analysis of the deposited data

How the results depend on the processing

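Of 129 values recomputed under other settings, 86 stayed within the tolerance and 43 moved. Where any shared base counted as over, several orders turned. H3K27ac was then higher for over than for absent, and over had the widest peaks. CpG-rich genes were then 83.4% for over, above the 78.2% for absent. At coding genes over became the commonest arrangement, with 10590 genes against 998 with one flank. Counts within the tolerance of 1.5 times included those with flank limits of 1 kb and 5 kb, with H3K4me1 peaks joined across 500 bp, and on assembled chromosomes alone.

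The definition of over moved the most. Where any shared base counted as over, there were 14036 peaks with H3K4me1 over them, 427 with both flanks and 1516 with one flank, and 10590, 305 and 998 genes. H3K27ac was then on 57.4% (over) and 61.7% (one flank), the downstream share was 61.8%, and median widths were 1789 bp (over), 1629 bp (both flanks) and 1456.5 bp (one flank). CpG-rich genes were 83.4%, 87.2% and 86.0%, and the limb lists had 78, 4 and 15 genes in these arrangements. Where 1 H3K4me1 peak had to span the whole peak, 4230 were over and 5926 had both flanks. Where H3K4me1 had to cover 50% of the peak, H3K27ac was on 73.9% with both flanks, and median widths were 1588.5 bp (over) and 2030.5 bp (both flanks).

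Among the wider 50% of H3K4me3 peaks, 2908 were over, 3367 had one flank and 662 had none, and H3K27ac was on 44.9% (over), 74.6% (both flanks), 75.6% (one flank) and 63.0% (absent). These counts fall partly because fewer peaks entered. With the wider 50% of H3K4me1 peaks, 575 had both flanks and 8332 none, and H3K27ac was on 68.6% (one flank) and 57.9% (absent). With H3K27ac covering 50% of the peak, it was on 38.3% (over), 68.5% (both flanks) and 68.2% (one flank). From the 5′-most TSS alone, CpG-rich genes were 70.8% (over), 85.8% (both flanks), 85.5% (one flank) and 72.7% (absent), and 6 limb genes had no H3K4me1. A stretch of 3 kb, chosen after seeing the data, gave a downstream share of 84.6%. Apart from the definitions' own construction, the cause was not tested.

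No paired analysis was possible because each list is a consensus over replicates and carries no column per sample, and for the same reason leaving out each replicate was not run. The depth of each library is unknown, so absent means that no H3K4me1 peak was called at that depth.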

Other observations

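Some gene families were counted after values had been seen, and they are given as values alone. Of 36 HOX genes 28 had H3K4me3, against 64.8% of all coding genes. H3K4me1 lay over 12 of the 28, on both flanks of 6, on one flank of 6 and at none of 4. Over all coding genes with H3K4me3 it lay over 28.4%. HOXC13 and HOXB8 had neither H3K4me1 nor H3K27ac on the peak, whereas the HOXA3, HOXA4, HOXA6, HOXC4, HOXC6 and HOXD8 peaks had both flanks and H3K27ac. H3K4me1 lay over 18 of 46 genes of the proteasome, 16 of 73 of the mitochondrial ribosome and 13 of 47 of the NDUF group, which encodes parts of respiratory complex I. Of 22 claudin genes, which encode tight junction proteins, 12 had H3K4me3, against 64.8% of all coding genes. H3K4me1 lay over 9 of these 12, and 3 of the 12 had H3K27ac, against 68.4% of all genes with H3K4me3.

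Of 31 collagen genes with H3K4me3, H3K4me1 lay over 12, on both flanks of 12, on one flank of 6 and at none of 1, beside 28.4%, 23.5%, 37.0% and 11.15% of all genes. In all 6 one-flank genes the flank was upstream. Among all one-flank peaks with TSSs in 1 direction it was upstream at 18.4%, a limit not set on the 6. Of 236 zinc finger genes named ZNF, H3K4me1 lay over 74, on both flanks of 39, on one flank of 93 and at none of 30, and the flank was downstream in 74 of the 93. The share with H3K4me1 over the peak, 31.4%, is close to the 28.4% of all genes, and the downstream flank was found at 81.6% of all one-flank peaks with TSSs in 1 direction. On chromosome Y, which held 37 H3K4me3 peaks, H3K4me1 was absent at 30 (81.1%, interval 65.8 to 90.5). It was absent at 14.6% of all pig H3K4me3 peaks and at 43.4% of those on X. The part of sex or mappability in the count on Y was not tested.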
